A study of Homo sapiens with 6 samples.

Results

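Transcripts of 10 collagen-modifying enzymes were read from the 60623 genes of the deposited table: the lysyl oxidases LOX, LOXL1, LOXL2, LOXL3 and LOXL4, the lysyl hydroxylases PLOD1, PLOD2 and PLOD3, and the prolyl 4-hydroxylase alpha subunits P4HA1 and P4HA2. They were listed by gene name, with earlier results of these data known, and each name matched 1 row. The cells were LX2, an established human line of hepatic stellate cells, the cell type that lays down collagen in liver fibrosis. In all 6 libraries the cells grew in 2% serum, were transfected with siRNA and had their RNA taken at 36 h. The siRNA was the control siNC in 3 libraries (genotype labelled WT), and in the other 3 it was siSHMT2 (genotype labelled as SHMT2 knockdown). SHMT2 is the mitochondrial serine hydroxymethyltransferase, and the comparison asks how its depletion alters gene expression in these cells. All libraries come from 1 cell line, untransfected cells were not analysed here, and the sources used here give no siRNA sequence.

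The 3 families act at successive steps of collagen maturation. Prolyl 4-hydroxylases, tetramers of catalytic alpha subunits with P4HB, hydroxylate proline in the endoplasmic reticulum, which lets the triple helix hold at body temperature. Lysyl hydroxylases hydroxylate lysine there, and PLOD2 is known for acting on the lysines of the telopeptides, the short ends of the chain that form the stable cross-links of fibrotic tissue. Both kinds of hydroxylase use iron, ascorbate and 2-oxoglutarate. Lysyl oxidases, copper enzymes that are secreted, then oxidize lysine and hydroxylysine in collagen and elastin outside the cell, and the aldehydes formed react into cross-links.

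The libraries held 14722344 to 15669139 recovered reads, that is, whole reads calculated back from the FPKM, which are fragments scaled to gene length and library size. The library size behind the FPKM was 0.957 times the recovered reads in siNC replicate 2 and 1.02 to 1.13 times in the others. In siNC replicate 2, 18723 genes were above 0 FPKM, against 20559 to 21136 in the others. Its FPKM sum was 389085, against 310119 to 367639. SHMT2, the targeted gene, was at 40.8, 56.3 and 45.1 FPKM in siNC replicates 1, 2 and 3 and at 2.25, 2.10 and 2.42 in siSHMT2. Of 15 stellate and mesenchymal markers 9 had a mean of at least 1 FPKM, among them COL1A1 and SPARC. DES, LRAT, HGF, LUM and DCN had a mean below 0.1, and LRAT was at 0 in all 6 libraries. ACTA2, also below 1 FPKM, was at 0.209 to 0.555 in siNC and at 0.510 to 0.985 in siSHMT2, with overlapping groups. The summed level of the 15 markers ranged from 1898 to 2788 FPKM over the siNC libraries and from 1475 to 1697 over the siSHMT2 libraries. Most of it came from VIM (739 to 930 FPKM in siNC, 473 to 527 in siSHMT2) and TIMP1 (632 to 1393 and 559 to 724). Of the 9 markers, 2 (VIM and THY1) were lower in every siSHMT2 library than in every siNC library, against 18.6% of all genes tested. The groups overlapped for the other 7, COL1A1, SPARC, TAGLN and TIMP1 among them. The part of VIM and THY1 in the results below was not tested. Markers of hepatocytes (0 of 8) and liver endothelium (0 of 7) did not reach a mean of 1 FPKM, with sums of at most 1.36 and 0.665 FPKM in any library. Kupffer cell and leukocyte markers reached it in 1 of 7 cases (CD14; PTPRC and CD163 were at or near 0) and cholangiocyte markers in 2 of 5 (KRT7 and SOX9; EPCAM and CFTR were at or near 0).

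PLOD2 fell in siSHMT2 cells, and none of the other 7 members that could be tested passed the threshold in either direction. Members were tested within all 10865 genes with a mean of at least 1 FPKM by limma on log2(FPKM + 1), at a Benjamini-Hochberg adjusted p of 0.05. LOXL3 and LOXL4 lay below that level. Of the 8 members tested, 1 was thus called lower, against 9.85% of all genes tested, and 0 were called higher, against 6.07%; in either direction the share of all genes was 15.9%. Over all genes, 1070 were called lower and 659 higher, a split that depended on scaling: it was 620 and 686 as TPM, 767 and 796 with FPKM from plain read sums and 853 and 914 with voom on recovered reads. At an unadjusted p of 0.05, PLOD2 was likewise the only member called by limma, and with limma voom on recovered reads it was again the only one at the adjusted threshold. The median log2 fold change of the 8 was -0.10, against 0.02 for all genes tested. A log2 fold change here is a difference of mean log2(FPKM + 1), so the change of a gene of low level is understated. Whether replicates were separate cultures is not in the labels; p-values then reflect only the spread between libraries, which may be technical.

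**Figure D1:**
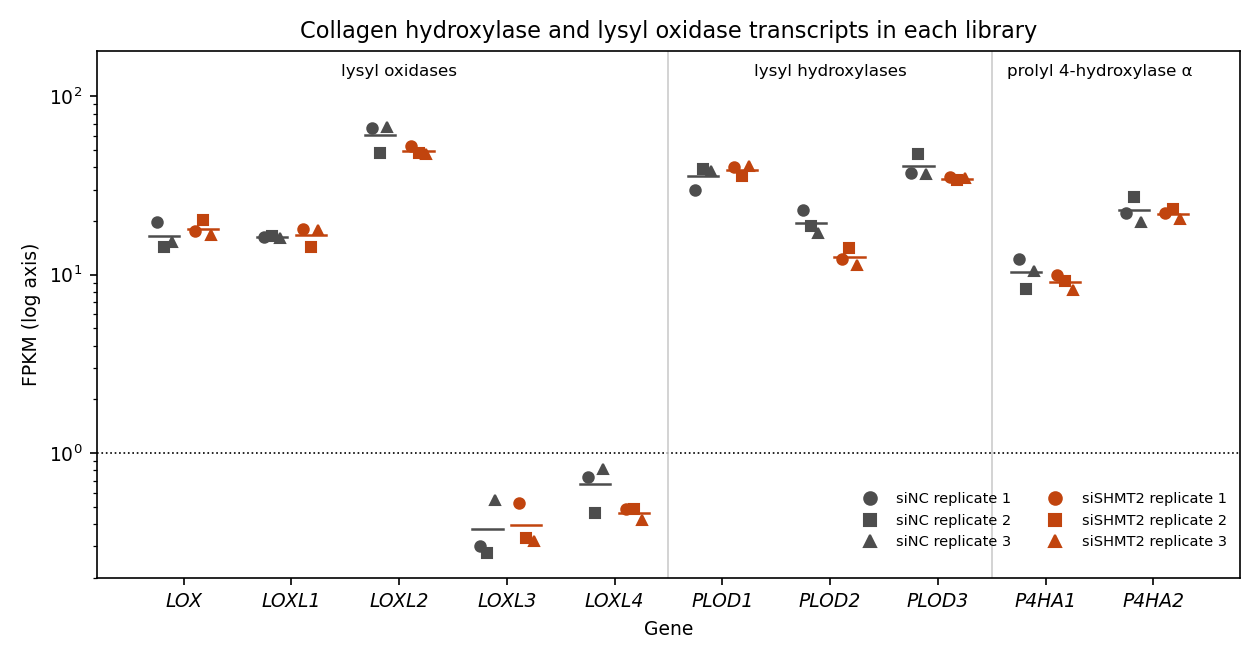
FPKM (log axis) of the 10 members in each library, with siNC in grey and siSHMT2 in orange. Symbols mark the replicate number, short lines the group mean and the dotted line the level of 1 FPKM needed for testing; PLOD2 is the member whose siSHMT2 libraries (11.3 to 14.1) lie clearly below its siNC libraries (17.0 to 23.1), and LOXL3 and LOXL4 lie below the dotted line in all 6 libraries.

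Sequences are shown for 2 kinds of short word: a pair of overlapping 3′ UTR words, and a promoter word of the hypoxia response. The words GACTTTA and ACTTTAA (transcript strand; they overlap in 6 bases) were singled out on these same fold changes, so their presence or absence is a description. In the longest annotated 3′ UTR of GENCODE release 29, either word stood in 24.6% of 9386 searched tested protein-coding genes, but in none of the 8 tested members, PLOD2 included, whose 3′ UTR of 1277 bases had 28.7% GC. LOXL3 alone of the 10 held one, at chr2:74532677-74532699 on the minus strand (GRCh38), with the word in capitals:

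LOXL3: cccaggatGACTTTAtggatgag

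The core of the hypoxia response element, ACGTG on either strand (CACGT on the other), was searched on both strands in the RefSeq promoters (GRCh38.p14), windows of 300 bases around each start. It stood in 21.4% of 35116 promoters and in 26.2% of those of tested protein-coding genes. These shares count promoters, whereas the members are counted as genes, some with several promoters. Other forms of the core were not searched. Of the 9 members with a promoter in the table (all but LOXL2), LOX, PLOD2 and P4HA1 held it. The windows below run 5′ to 3′ on the strand of the gene, which is the minus strand for all 3, with the core in capitals, and are named by the distance of the core from the start. They lie at chr3:146161369-146161395 and chr3:146161315-146161341 for PLOD2, chr10:73096937-73096963 for P4HA1 and, for the promoter of LOX with the most cores, at chr5:122078429-122078455, chr5:122078360-122078386, chr5:122078342-122078368 and chr5:122078286-122078312.

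PLOD2 -200: gtgagcctccaCACGTagccgcaggca
PLOD2 -146: aaacagtccagACGTGgggcccaggag
P4HA1 -86: gtgatcgagctCACGTagcgagggctg
LOX -185: ctccctgtgcaACGTGtctggggggag
LOX -116: tgtccgccttgCACGTttccaatcgca
LOX -98: ccaatcgcattACGTGaacaaatagct
LOX -42: taactttgcaaACGTGccagaaagttt

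Among the lysyl hydroxylases, PLOD2 (ENSG00000152952, minus strand of chromosome 3, 146069440 to 146163653 in the table) was at 23.1, 18.7 and 17.0 FPKM in siNC replicates 1, 2 and 3, from 3092, 2079 and 2055 reads. In siSHMT2 it was at 12.2, 14.1 and 11.3 FPKM, from 1498, 1791 and 1365 reads. The groups did not overlap, and siNC replicate 1 was the highest library. The mean went from 19.6 ± 3.11 to 12.5 ± 1.44 FPKM (SD, n = 3), or 63.8% of siNC. PLOD2 fell by 0.60 on the log2 scale (SE 0.138, 95% interval -0.92 to -0.28, limma adjusted p = 0.0240), at the 6.79 percentile of the fold changes of all genes tested. Over 17 alternatives its log2 fold change was between -0.69 and -0.49, with adjusted p from 0.00426 to 0.127, and 12 kept the call. In bulk libraries, fewer cells with the transcript and less of it per cell cannot be told apart. The call was lost when siSHMT2 replicate 1 (adjusted p = 0.102) or 3 (0.101) was left out, with values of -0.59 and -0.54, and also as TPM (0.127), with FPKM from plain read sums (0.0753) or with no filter (0.0818). As TPM the median over all genes was 0.11, and relative to that median PLOD2 was at -0.65, against -0.62 as reported.

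**Figure D2:**
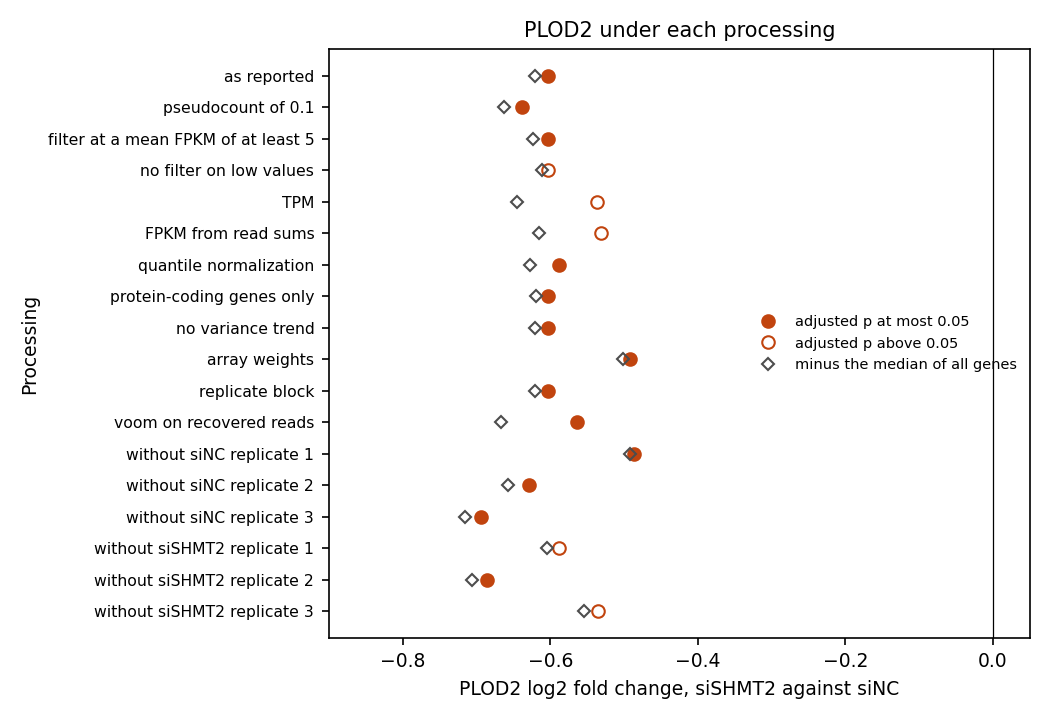
PLOD2 log2 fold change, siSHMT2 against siNC (horizontal axis), under the reported processing and each of the 17 alternatives (vertical axis). Filled circles passed an adjusted p of 0.05, open circles did not, and diamonds give the same value after subtracting the median of all genes; every value lies below 0, between -0.69 and -0.49 for the circles of the alternatives.

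PLOD3, the lysyl hydroxylase that also carries glycosyltransferase activity (ENSG00000106397, chromosome 7, 101205977 to 101218420), was at 37.1, 47.7 and 36.6 FPKM in siNC and at 35.1, 34.0 and 34.7 in siSHMT2. Every siSHMT2 library lay below every siNC library, by little for siNC replicates 1 and 3 and by more for replicate 2. The log2 fold change was -0.21 (95% interval -0.51 to 0.08, limma adjusted p = 0.316), and it was -0.091 without siNC replicate 2. With PLOD2 this made 2 of 8 members whose groups did not overlap in the lower direction, against 18.6% of all genes tested. Exons of PLOD3 share 429 bases with ZNHIT1 on the opposite strand, 7.56% of its exonic bases in GENCODE release 29, and ZNHIT1 had a mean of 44.3 FPKM. Nothing in the sources used here states whether counting used strand, so how the reads of such a stretch were counted is not known.

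PLOD1, the lysyl hydroxylase that acts on lysines within the helix (ENSG00000083444, chromosome 1, 11934205 to 11975538), was at 29.9, 39.2 and 38.3 FPKM in siNC and at 40.0, 35.8 and 40.6 in siSHMT2. The groups overlapped, and siNC replicate 1 was the lowest library. Its log2 fold change was 0.12 (95% interval -0.19 to 0.43, limma adjusted p = 0.592), and leaving out 1 library gave -0.00086 (siNC replicate 1) to 0.19 (siNC replicate 2).

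Within the lysyl hydroxylase family, the share of PLOD2 was lower in every siSHMT2 library than in every siNC library. It was 25.6%, 17.7% and 18.5% of the summed FPKM of the 3 genes in siNC replicates 1, 2 and 3, and 13.0% to 16.8% in the siSHMT2 libraries. PLOD1 held 33.2% to 41.7% in siNC and 42.7% to 46.9% in siSHMT2, and PLOD3 39.8% to 45.1% and 40.1% to 40.5%. These shares are measured within a library and do not depend on how libraries were scaled. They add up to the whole family, so a lower share of PLOD2 raises the others. No background over all genes was calculated for them. The ratio of PLOD2 to PLOD1 was 0.771, 0.478 and 0.445 in siNC and 0.305, 0.393 and 0.278 in siSHMT2. Each siSHMT2 ratio lay below each siNC ratio, as it did for 23% of all tested genes set against PLOD1; for 8.28% each lay above. The ratio of PLOD2 to PLOD3 overlapped between the groups (0.393 to 0.621 in siNC and 0.325 to 0.415 in siSHMT2). Ratios were not tested.

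**Figure D3:**
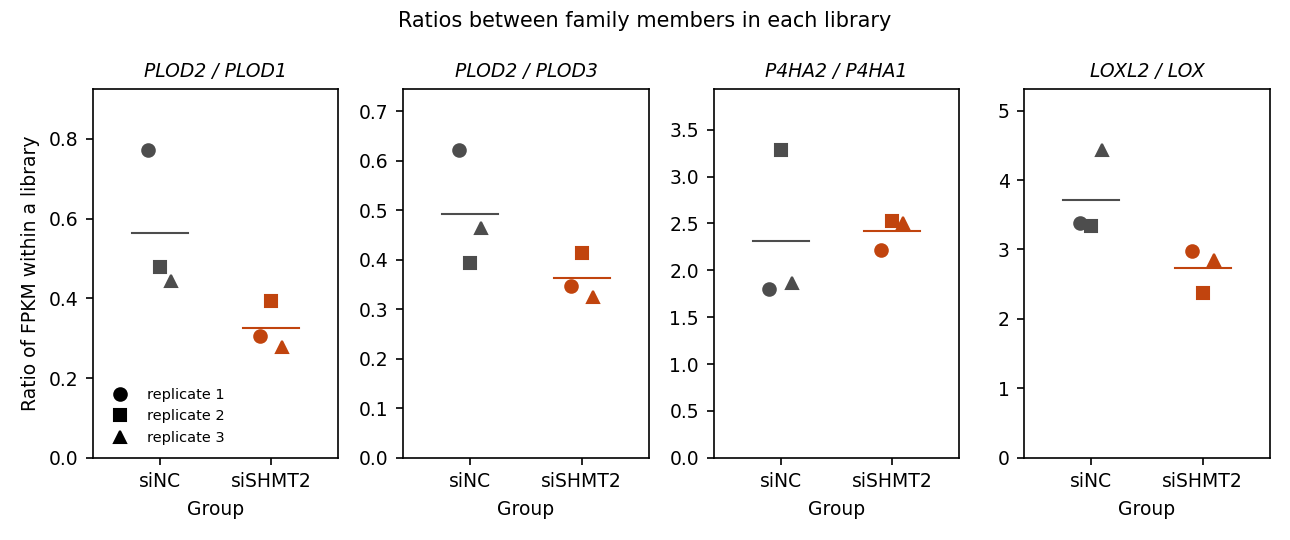
Ratio of the FPKM of 2 family members within each library (vertical axes, each from 0), by group, with symbols for the replicate number and lines at the group mean. The ratios PLOD2 to PLOD1 and LOXL2 to LOX do not overlap between siNC (grey) and siSHMT2 (orange), and the ratios PLOD2 to PLOD3 and P4HA2 to P4HA1 do.

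Among the lysyl oxidases, LOXL2 had the highest level (ENSG00000134013, chromosome 8, 23296897 to 23425328). LOXL2, which cross-links collagen IV and fibrillar collagen and has been followed as a marker of liver fibrosis, was at 66.3, 47.9 and 67.7 FPKM in siNC and at 52.4, 47.9 and 47.5 in siSHMT2. The groups overlapped through siNC replicate 2, which lay within the range of the siSHMT2 libraries. The log2 fold change was -0.28 (95% interval -0.63 to 0.07, limma adjusted p = 0.271). Without siNC replicate 2 it was -0.44 and passed the threshold (adjusted p = 0.0294), and with array weights it was -0.36 (0.0175). Without siNC replicate 3 it was -0.19. None of the other 15 alternatives called it. The array weights were unequal, with 0.263 for siNC replicate 2 against 2.68 for siNC replicate 3 and 4.94 for siSHMT2 replicate 1.

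LOX, the founding member of the family (ENSG00000113083, chromosome 5, 122063195 to 122078360), was at 19.6, 14.4 and 15.3 FPKM in siNC and at 17.6, 20.1 and 16.7 in siSHMT2. The ranges overlapped, with a log2 fold change of 0.14 (95% interval -0.18 to 0.46, limma adjusted p = 0.536). Leaving out 1 library gave 0.058 (siNC replicate 2) to 0.27 (siNC replicate 1). The ratio of LOXL2 to LOX was 3.38, 3.33 and 4.43 in siNC and 2.99, 2.38 and 2.84 in siSHMT2. Each siSHMT2 ratio lay below each siNC ratio, as for 21.5% of all tested genes set against LOX; for 6.58% each lay above. LOXL2 held 60.3% to 67.3% of the summed FPKM of the 5 lysyl oxidases in siNC and 57.5% to 58.8% in siSHMT2, and LOX 15.2% to 19.0% and 19.7% to 24.2%. Here too the shares depend on each other, and no background over all genes was calculated.

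LOXL1, a lysyl oxidase tied to elastic fibres (ENSG00000129038, chromosome 15, 73925989 to 73952137), was at 16.3, 16.4 and 16.2 FPKM in siNC, nearly the same in each library. In siSHMT2 it was at 18.1, 14.3 and 17.7, on both sides of the siNC values. Its log2 fold change was 0.03 (95% interval -0.23 to 0.29, limma adjusted p = 0.898), and it was 0.13 without siSHMT2 replicate 2 and -0.030 without siSHMT2 replicate 1. LOXL1 shares 335 exonic bases, 9.21% of its own, with the antisense gene LOXL1-AS1, which had a mean of 3.55 FPKM.

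LOXL4 (ENSG00000138131, chromosome 10, 98247690 to 98268194) was at 0.731, 0.461 and 0.813 FPKM in siNC and at 0.486, 0.486 and 0.422 in siSHMT2, from 24 to 46 reads. LOXL3 (ENSG00000115318, chromosome 2, 74532258 to 74555690) was at 0.304, 0.275 and 0.548 FPKM in siNC and at 0.525, 0.334 and 0.322 in siSHMT2, from 18 to 39 reads. The groups overlapped for both. In a fit without a filter their log2 fold changes were -0.18 (95% interval -0.46 to 0.09) and 0.02 (-0.25 to 0.29), with limma adjusted p of 0.533 and 0.940. Exons of LOXL3 share 625 bases, 14.3% of its own, with HTRA2 on the opposite strand, which had a mean of 7.82 FPKM. How the reads of that stretch were counted is not known, so the low level of LOXL3 is less certain.

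The prolyl 4-hydroxylase subunits overlapped between the groups. P4HA1, the widely expressed catalytic subunit (ENSG00000122884, chromosome 10, 73007217 to 73096974), was at 12.2, 8.30 and 10.6 FPKM in siNC and at 9.96, 9.22 and 8.18 in siSHMT2, with a log2 fold change of -0.16 (95% interval -0.49 to 0.18, limma adjusted p = 0.522). Leaving out 1 library gave P4HA1 values of -0.29 (siNC replicate 2) to -0.039 (siNC replicate 1). P4HA2 (ENSG00000072682, chromosome 5, 132191838 to 132295315), the alpha subunit of the second form of the enzyme, was at 22.1, 27.2 and 19.7 FPKM in siNC and at 22.1, 23.3 and 20.5 in siSHMT2. Its log2 fold change was -0.05 (95% interval -0.36 to 0.26, limma adjusted p = 0.824), and the sign turned positive in 5 of 17 alternatives, TPM among them; leaving out 1 library gave -0.15 (siNC replicate 3) to 0.069 (siNC replicate 2). P4HA2 exceeded P4HA1 in every library, by 1.81 to 3.28 times in siNC and 2.22 to 2.53 times in siSHMT2, and siNC replicate 2 set the upper end.

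**Figure D4:**
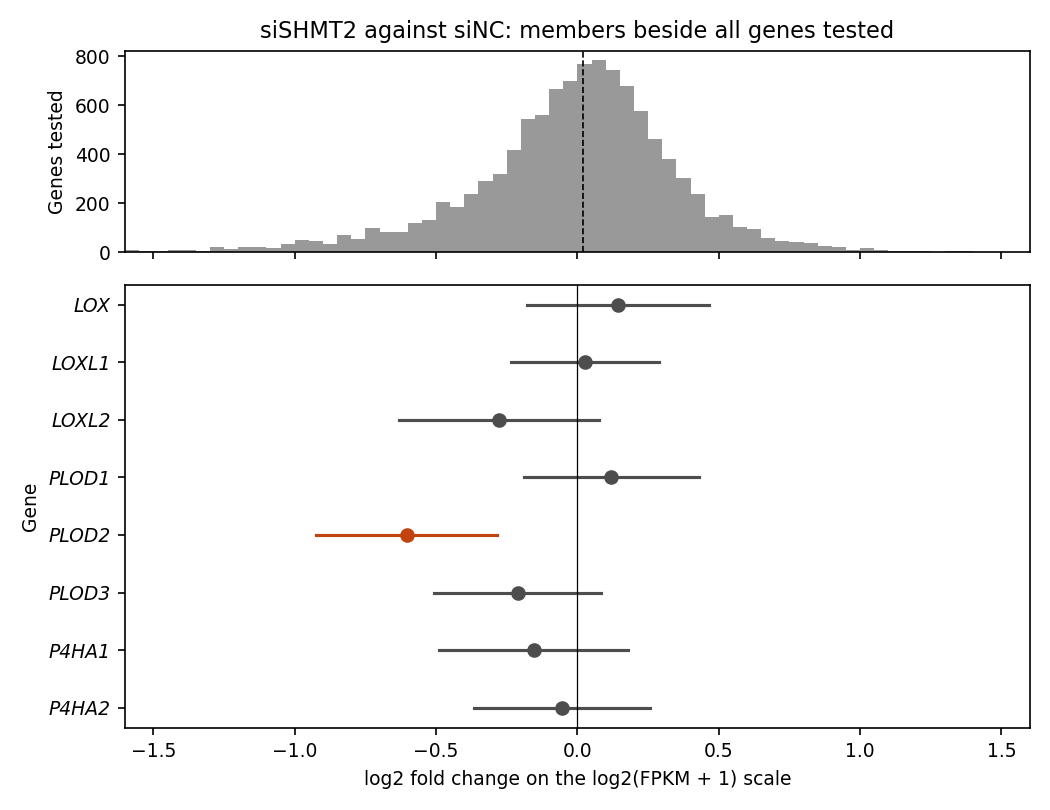
Upper panel, the number of tested genes by log2 fold change (bins of 0.05, dashed line at the median of 0.02; 48 genes below and 10 above the axis are not drawn). Lower panel, the fold change of the 8 tested members with its 95% interval from limma; the interval of PLOD2 (orange, adjusted p = 0.0240) lies below 0 and the other 7 (grey) include 0.

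Set side by side per length in siNC, LOXL2 (47.9 to 67.7 FPKM) led, followed by PLOD3 (36.6 to 47.7) and PLOD1 (29.9 to 39.2), whose ranges overlapped. P4HA2 (19.7 to 27.2), PLOD2 (17.0 to 23.1), LOX (14.4 to 19.6) and LOXL1 (16.2 to 16.4) came next; P4HA2 overlapped PLOD2, and PLOD2 and LOXL1 each overlapped LOX. P4HA1 (8.30 to 12.2) lay below these, and LOXL4 and LOXL3 overlapped at the foot. In siSHMT2 LOXL2 again led and LOXL4 and LOXL3 were again lowest. There PLOD1 (35.8 to 40.6) lay above PLOD3 (34.0 to 35.1), and PLOD2 (11.3 to 14.1) lay below LOX (16.7 to 20.1) and LOXL1 (14.3 to 18.1) in every library. Gene lengths in the table are those of merged exons, so the order between genes also depends on annotation.

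For each family, the member with the smallest adjusted p was compared with all other tested protein-coding genes by Pearson's r of log2(FPKM + 1) over the 6 libraries, as a description. Closest to PLOD2 were LRCH2, PRKAA1, a catalytic subunit of AMP-activated kinase, and FNIP1, with r of 0.998, 0.997 and 0.997; 8.04% of genes had r of at least 0.9. Closest to LOXL2 were the kinase PIM2, the glucose transporter SLC2A1 and CYB5A (0.992, 0.987 and 0.984), and closest to P4HA1 were SMG6, NAPG and PSMC2 (0.995, 0.992 and 0.991). LRCH2 and PRKAA1 were called lower by limma, with log2 fold changes of -0.66 and -0.54. Both calls were lost without siSHMT2 replicate 1 (limma adjusted p = 0.0977 and 0.104) or 3 (0.0932 and 0.102), and as TPM (0.0826 and 0.149). These genes were picked for following PLOD2 over the same libraries, so their falls and lost calls add nothing to those of PLOD2. LRCH2 averaged 2.04 FPKM in siNC and 0.918 in siSHMT2, and passed the filter through siNC alone. For LOXL2 and P4HA1, 1.41% and 1.45% of genes had r of at least 0.9.

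Of the 3 members with the hypoxia core in the promoter windows printed above, PLOD2 fell, and LOX and P4HA1 did not pass the test (log2 fold changes of 0.14 and -0.16). Hypoxia-inducible factors and the oxygen-sensing hydroxylases that mark them had 0 of 5 tested genes called by limma, with a median log2 fold change of 0.06; HIF1A was 42.0 ± 5.63 and 44.6 ± 1.76 FPKM (SD, n = 3, adjusted p = 0.672), and HIF1AN and EPAS1 had log2 fold changes of 0.18 and 0.06. EGLN1, EGLN2 and EGLN3, the main hydroxylases of these factors, lay below 1 FPKM and were not tested, and HIF1AN passed with array weights (0.19, adjusted p = 0.0344). Other targets of these factors had 2 of 18 called lower and 1 higher, with a median of -0.10. ALDOA, a glycolytic aldolase, fell by 0.48, MXI1, a MYC antagonist, fell by 0.37, and NDRG1, a stress-response gene, rose by 0.64. Levels of the first and second were low: ALDOA averaged 4.45 FPKM in siNC and 2.89 in siSHMT2, and MXI1 1.79 and 1.16. With a pseudocount of 0.1 the MXI1 call was lost (limma adjusted p = 0.0545). None of these 3 calls held without siSHMT2 replicate 1 (limma adjusted p = 0.109, 0.169 and 0.0566) or 3 (0.0885, 0.154 and 0.0545). The ALDOA call was also lost without siSHMT2 replicate 2 (0.113), and the MXI1 call without siNC replicate 1 (0.0927), siNC replicate 3 (0.0928) or siSHMT2 replicate 2 (0.147).

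Around the members, 71 of 105 other genes of the pathway were tested, and limma called 9 lower (12.7%) and 4 higher (5.63%), beside 9.85% and 6.07% of all genes tested. Their median log2 fold change was -0.02. A 3′ UTR word stood in 16 of the 71 (22.5%), beside 24.6% of all searched genes: in 4 of the 9 called lower (TFRC, SLC11A2, SLC2A3 and MXI1), 0 of the 4 called higher and 12 of the 58 not called. The words were singled out on these fold changes, so these counts support nothing. P4HB, the shared subunit of prolyl 4-hydroxylases, had a log2 fold change of -0.10 (adjusted p = 0.758). As TPM, 4 of the 13 calls were lost (limma adjusted p of 0.0731 for COL27A1, 0.112 for THBS1, 0.159 for ALDOA and 0.196 for MXI1), and with no filter these 4 and P3H3 (0.0659) were lost. Leaving out 1 library moved the fold change by over 1.5 times for 14 of the 20 uncalled genes named from these lists, and for 0 of the 13 called. A ratio moves easily near 0, and called genes were selected for large, even differences in these libraries. That contrast therefore says nothing on how stable the calls are, and several calls did not hold when 1 library was left out, as given for each gene. With array weights, which leaned on siNC replicate 3 and siSHMT2 replicate 1, SEC23A, COL1A2, FBN1, FN1, SLC2A1, IDH3A and HIF1AN passed as well among the genes named from these lists.

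Iron and 2-oxoglutarate supply had 2 of 8 tested genes lower, with a list median of -0.03. TFRC, the transferrin receptor that brings iron into the cell, was at 28.0, 25.2 and 25.9 FPKM in siNC and at 7.88, 8.02 and 6.97 in siSHMT2. It fell by 1.67 (SE 0.0997, limma adjusted p = 0.000128), and every siSHMT2 library lay far below every siNC library. SLC11A2, the DMT1 iron transporter, fell by 0.73 (adjusted p = 0.00310), and IDH3A, an isocitrate dehydrogenase subunit, had a log2 fold change of 0.59 (adjusted p = 0.0629). IDH3A passed with voom (0.0405), quantile normalization (0.0389), protein-coding genes only (0.0317) and array weights (0.0127). TFRC and SLC11A2 held both 3′ UTR words, and the part of the words in these differences was not tested. Each alternative that tested them kept both calls, 17 for TFRC and 16 for SLC11A2.

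Ascorbate supply had 1 of 4 lower, with a median of -0.39: SLC2A3, a transporter of glucose that also takes up dehydroascorbate, went from 3.80 ± 0.687 to 1.81 ± 0.105 FPKM (SD, n = 3) and fell by 0.76 (limma adjusted p = 0.00630). SLC2A3 held the word ACTTTAA. SLC2A1 and GSTO1, which reduces dehydroascorbate, had log2 fold changes of -0.29 and -0.49 (adjusted p = 0.324 and 0.242). Without siNC replicate 2, SLC2A1 was at -0.49 (0.0201) and GSTO1 at -0.19 (0.405), and without siNC replicate 3 SLC2A1 was at -0.17. Copper supply had 1 of 4 higher, with a median of 0.26: COX17, which carries copper to cytochrome oxidase rather than to secreted enzymes, rose by 0.82 (adjusted p = 0.00217). The copper importer SLC31A1 and the chaperone CCS had log2 fold changes of -0.21 and 0.37 (adjusted p = 0.168 and 0.383; CCS was at 0.12 without siNC replicate 1), and ATP7A, which loads copper onto lysyl oxidases, lay below 1 FPKM.

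Partners of the hydroxylases and prolyl 3-hydroxylases had 1 of 6 lower, with a median of -0.06. P3H3, a prolyl 3-hydroxylase family member known to act with lysyl hydroxylase in the endoplasmic reticulum, was at 13.8, 19.7 and 18.6 FPKM in siNC and at 9.47, 8.61 and 11.2 in siSHMT2. Every siSHMT2 library lay below every siNC library, as for 18.6% of all genes tested, and P3H3 fell by 0.76 (limma adjusted p = 0.0151). That call was lost without siNC replicate 3 (0.0516) or siSHMT2 replicates 1 (0.0669) or 2 (0.0648), with log2 fold changes of -0.71, -0.75 and -0.69. P3H1 and P3H4, which joins P3H3 in the same complex, had log2 fold changes of -0.17 and 0.17 (adjusted p = 0.358 and 0.366). The glycosyltransferase COLGALT1, which adds galactose to hydroxylysine, was the 1 tested gene of its list and was not called (log2 fold change -0.11, adjusted p = 0.599).

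Procollagen folding and export had 2 of 10 higher and 0 lower, with a median of 0.31. SERPINH1 (HSP47), the collagen chaperone, was at 39.5, 45.5 and 43.2 FPKM in siNC and at 61.8, 58.5 and 61.8 in siSHMT2. All siSHMT2 libraries lay above all siNC libraries, as for 17.9% of all genes tested. SERPINH1 rose by 0.50 (limma adjusted p = 0.0185). That call was lost without siSHMT2 replicate 1 (0.105), 2 (0.0675) or 3 (0.0921), with log2 fold changes of 0.49, 0.52 and 0.49. KLHL12, a ubiquitin ligase adaptor that enlarges COPII vesicles for collagen, rose by 0.53 (adjusted p = 0.00778). SEC23A, a COPII coat subunit, had a log2 fold change of 0.38 (adjusted p = 0.0859; 0.0267 without siNC replicate 1, at 0.49).

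Of the substrates, fibrillar collagen chains had 1 of 6 lower, with a median of 0.02: COL27A1, at 1.59 ± 0.203 and 0.853 ± 0.0157 FPKM (SD, n = 3), fell by 0.48 (limma adjusted p = 0.0287). COL27A1 passed the filter of 1 FPKM through siNC alone. COL1A2 and COL5A2 had log2 fold changes of 0.22 and -0.17 (limma adjusted p = 0.319 and 0.353). The COL27A1 call was lost on leaving out siNC replicate 3 (0.0678) or siSHMT2 replicates 1, 2 or 3 (0.108, 0.0959 and 0.106), and COL1A2 passed without siNC replicate 1 (0.0486, at 0.36) but was at 0.12 (0.553) without siNC replicate 2. Procollagen proteinases and enhancers had 0 of 3 called, with a median of -0.03; BMP1, which also cleaves the LOX propeptide, PCOLCE and ADAMTS2 had log2 fold changes of -0.03, -0.13 and 0.04 (adjusted p = 0.894, 0.601 and 0.814).

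Elastin and microfibril substrates had 1 of 4 lower, with a median of -0.13. LTBP1, a latent TGF-beta binding protein of microfibrils, fell by 0.68 (limma adjusted p = 0.0106), a call lost without siSHMT2 replicate 1 (0.0543, at -0.66). Its mean was 2.03 FPKM in siNC and 0.879 in siSHMT2, so LTBP1 passed the filter through siNC alone. FBN1 and FBN2 had log2 fold changes of 0.41 and -0.16 (limma adjusted p = 0.0679 and 0.334). FBN1 passed without siNC replicate 1 (0.0278, at 0.51), with quantile normalization (0.0484), protein-coding genes only (0.0495) and array weights (0.00508). ELN, elastin itself, was at 0 in all 6 libraries. Scaffold proteins that bind lysyl oxidases had 1 of 2 lower, with a median of -0.61. THBS1, thrombospondin 1, fell by 0.83 (adjusted p = 0.0374) with its highest library in siNC replicate 1, a call lost on leaving out siNC replicate 3 (0.0571) or siSHMT2 replicates 1, 2 or 3 (0.109, 0.0738 and 0.123), at -0.94, -0.84, -0.91 and -0.73. FN1, fibronectin, had a log2 fold change of -0.38 (adjusted p = 0.125).

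**Figure D5:**
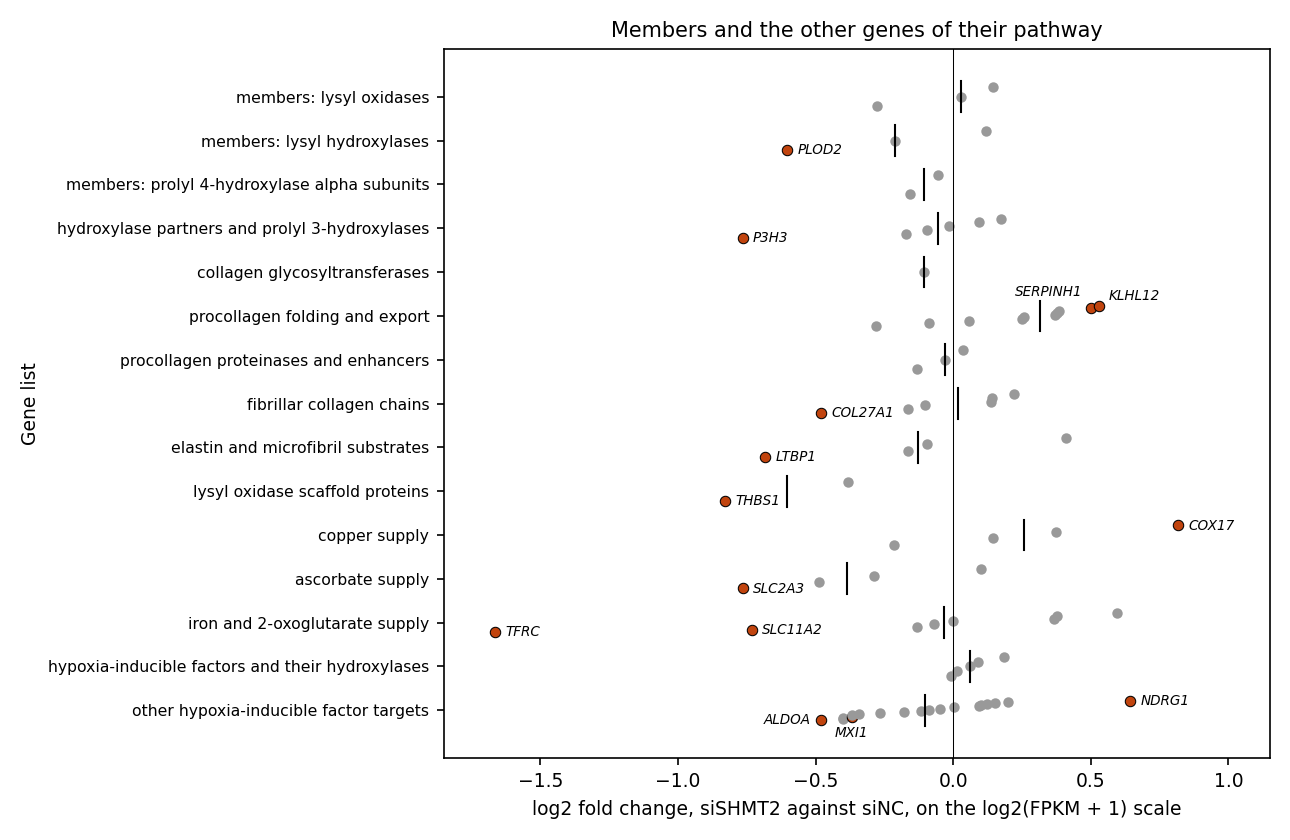
Log2 fold change of each tested member and each tested gene of the 12 other pathway lists (vertical axis), with genes at a limma adjusted p of at most 0.05 in orange and named, others in grey, and black bars at list medians. TFRC at -1.67 and COX17 at 0.82 mark the 2 ends, and PLOD2 at -0.60 is the 1 member in orange.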

How the data were processed

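HISAT2 2.0.5 and featureCounts 1.5.0-p3, with hg18 as the build, are named in the submitters' processing notes, and the labels' protocols name a SMARTER mRNA library kit. The authors deposited FPKM values per gene and library. Gene coordinates in the table were those of GRCh38, not hg18: of 58516 identifiers shared with GENCODE release 29, 99.9% overlapped on the same chromosome. Start and end were identical for 79.6%, and LOXL2, LOXL3, LOXL4 and SHMT2 were among those that differed. The annotation behind the table may thus differ from release 29, whose exons and 3′ UTRs were used here. Coordinates are given as in the table. In each library 1 read was worth 1 fixed amount of FPKM multiplied by gene length, and dividing by it gave whole reads for 100% of values above 0 (tolerance 0.02).

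Genes with a mean of at least 1 FPKM over the 6 libraries (10865, of them 9489 protein-coding) were tested with limma 3.58.1 (R 4.3.3). The test used log2(FPKM + 1) with a variance trend, and p-values were adjusted over all genes tested. A gene could pass the filter through 1 group alone. Of the named genes, LTBP1, COL27A1, LRCH2 and SMG6 did so through siNC, and IDH3A through siSHMT2. The fit was run on simulated libraries of like depth and fixed spread. Such a run checks the code only and says nothing on the calls from these unequal libraries. Groups and replicate numbers came from sample titles. Members and lists were chosen with earlier results of these data known. Text names all 10 members, SHMT2, up to 3 genes of smallest adjusted p in each of 12 other lists and 3 genes of closest profile to 1 member per family; P4HB, HTRA2, ZNHIT1, LOXL1-AS1, ATP7A, ELN and marker genes were named besides. Alternatives covered pseudocount, filter, scaling, biotype, variance model, weights, a replicate block, voom on reads and leaving out each library. Depth limits LOXL3 and LOXL4 most, at 18 to 46 reads per library.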

Additional observations from a re-analysis of the deposited data

How the results depend on the processing

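PLOD2 stayed negative under all 17 alternatives, and its call was lost in 5. The number of members called lower, 1 as reported, was 0 with no filter, as TPM and with FPKM from read sums, 2 with array weights, which added LOXL2, and 0 to 2 when 1 library was left out. No member was called higher under any of these alternatives. The array weights were 0.305, 0.263 and 2.68 for siNC replicates 1, 2 and 3. For siSHMT2 replicates 1, 2 and 3 they were 4.94, 0.881 and 1.07. Calls with these weights thus rest mostly on siNC replicate 3 and siSHMT2 replicate 1. Over all genes, 1070 were called lower and 659 higher as reported, 618 lower at a mean of at least 5 FPKM, where fewer genes were tested, 603 lower and 333 higher with no filter, 620 lower as TPM, and 1976 lower and 1827 higher with array weights. Leaving out 1 library gave 498 (siSHMT2 replicate 1) to 1132 lower and 229 (siSHMT2 replicate 1) to 729 higher; without siSHMT2 replicate 2 they were 592 and 282, and without replicate 3 they were 547 and 246. SHMT2 stayed called throughout.

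Same-numbered replicates did not pair: their deviations from the group means correlated at -0.02, -0.35 and 0.24, and not every library correlated best with its own number. With the replicate block 696 genes were called lower and 374 higher, and PLOD2 stayed called (limma adjusted p = 0.0460); the calls of SERPINH1 (0.0728), COL27A1 (0.0833), ALDOA (0.0639), MXI1 (0.129), LRCH2 (0.0541) and PRKAA1 (0.0533) were lost, and no other named gene changed its call.

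Some log2 fold changes near 0 turned sign. P4HA2 was at 0.037 as TPM, 0.021 with FPKM from read sums, 0.022 with voom and 0.098 with array weights, and at -0.15 to 0.069 when 1 library was left out. BMP1 was at 0.062, 0.045 and 0.048 under the first 3 of these, and at -0.092 to 0.041 when 1 library was left out. PSMC2 was at 0.0020 as TPM, and EPAS1 at -0.091 with array weights. With 1 library left out, PLOD1 was at -0.00086 to 0.19, LOXL1 at -0.030 to 0.13, HIF1A at -0.0053 to 0.18 and EPAS1 at -0.019 to 0.13. The cause of these changes was not tested.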
